A study of Mus musculus with 2 samples.

Results

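The genes described here encode the subunits, activators and assembly factors of the proteasome. They were taken as every gene whose symbol in the array platform's annotation begins with Psm, a letter from a to g and a digit, which gave 40 of 16390 named genes, each with 1 probe. Of these, 13 belong to the 20S core (7 alpha and 6 beta genes), 17 to the 19S cap (6 ATPases and 11 other subunits) and 4 to the immunoproteasome group (Psmb8, Psmb9, Psmb10 and Psme1). A further 3 are assembly chaperones (Psmd5, Psmd9 and Psmd10) and 2 are other regulators (Psme4 and Psmf1). The symbol rule also takes in Psmc3ip, which encodes a meiotic recombination factor and is no proteasome subunit. Probes under the symbols Psma5, Psmb3, Psme2 and Psme3 were not analysed here.

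The proteasome is the protease that degrades ubiquitin-tagged proteins in the cytosol and nucleus. Rings of alpha subunits form the gate of the 20S barrel and rings of beta subunits its interior, where Psmb5, Psmb6 and Psmb7 carry the peptide-cutting sites. The 19S cap binds the tagged protein, removes the ubiquitin and unfolds the chain with a ring of ATPases. Interferon replaces the catalytic beta subunits with Psmb8, Psmb9 and Psmb10 and adds the PA28 activator (Psme1 with Psme2), which alters the peptides made for MHC class I, and lymphocytes carry these immunosubunits constitutively.

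All populations came from the small intestinal epithelium of mice with 3 alleles, Atoh1-crePGR, Lgr5-EGFP-IRES-creERT2 and Rosa26-tdTomato. RU486, which activates the Cre fused to the progesterone receptor, was injected on 5 consecutive days, so that cells with Atoh1-driven Cre and their descendants kept tdTomato. Recombination was followed by 20 days of chase, after which the pooled cells of 4 mice were sorted into EGFP+ve/tdTomato-ve (EGFP-only), EGFP+ve/tdTomato+ve (double-positive) and EGFP-ve/tdTomato+ve (tdTomato-only) cells, with 1 biological replicate of each; the sources used here give no age for the animals. EGFP-only RNA carried Cy5 on both two-colour arrays, and the double-positive or the tdTomato-only RNA carried Cy3. The comparisons ask how cells with an Atoh1 history differ from Lgr5 cells without one. With 1 array a comparison and no dye swap, the ratios carry neither a replicate error nor a p-value, and a dye effect of a single probe cannot be told apart from a difference between populations.

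The markers of the sorted populations differed as follows. Stem cell markers were below 0 in 8 of 10 cases in the double-positive (median −0.48) and in 9 of 9 in the tdTomato-only cells (median −1.16), against 51.1% and 51.8% of all genes. Their summed intensity over blanks was 37714 and 37520.0 in EGFP-only (first and second array), 9811 in double-positive and 5772 in tdTomato-only cells. These sums set Cy5 against Cy3 before normalization. Olfm4 made up most of the EGFP-only sums, at 23003 and 23475, and had log2 ratios of −1.56 and −2.37. Lgr5 itself had spot intensities of 699 and 666 in EGFP-only, 572 in double-positive and 282 in tdTomato-only cells. Its normalized log2 ratios were 0.26 in the double-positive and −0.89 in the tdTomato-only cells. The double-positive ratio of Lgr5 had no stable sign, at 0.13 as deposited but −0.26 when centred on the array median. The tdTomato-only ratio was below 0 in each case, at −1.25 and −1.33. Paneth cell markers exceeded the EGFP-only level by 2-fold or more in 8 of 8 cases in the double-positive and in 7 of 8 in the tdTomato-only cells, and the 19 measured cell cycle genes were all below 0 on both arrays (medians of −0.61 and −1.09 on the log2 scale). Goblet cell markers had medians of 2.52 and 3.43 over 9 genes, and enterocyte markers 2.25 and 3.09 over 8. The value of 3.43 is that of Spink4, whose tdTomato-only spot was saturated, as were those of Tff3 and Zg16. The goblet mucin gene Muc2 had −0.40 and 0.16. All 15 measured T cell and intraepithelial lymphocyte markers, which are not epithelial, were higher by 2-fold or more in the double-positive cells, where 5.1% of all genes were. In the tdTomato-only cells 6 of 15 were, against 6.15% of all genes, and 14 of 15 in the authors' deposited ratios, against 10.6%. Of the 5 epithelial markers with a probe, Krt19 was not above background in the EGFP-only channel. The others were mixed, with Epcam at −0.55 and −0.64 (−1.19 and −1.30 in the deposited ratios) and Krt20 at 1.47 and 2.12. Cdh1 had 0.42 and −0.04, and Cldn7 had 0.42 and 0.41. In sorted bulk RNA, fewer cells of a type and less RNA per cell cannot be told apart.

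Proteasome genes had bright spots, so background limited few of them. Of the 40 genes, 33 exceeded an intensity of 1000 in the EGFP-only channel of each array, against 8.95% and 8.74% of all probes, and no spot was saturated. A probe counted as above background beyond the mean plus 2 SD of the blank spots. The first array had all 40 above it and the second 39. The exception was Psma8, a testis form of an alpha subunit, whose intensities of 77.8, 78.6, 84.6 and 83.6 (EGFP-only on the first and second array, double-positive, tdTomato-only) lay at the limit. It was above background in the EGFP-only channel alone on the second array. The bound of 1.10-fold from its level there lies too close to background to count as a difference between the populations.

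Proteasome genes were on the whole slightly lower in the double-positive than in the EGFP-only cells. The median log2 ratio was −0.28 over the 40 genes, a level 1.21-fold lower, and 34 of the 40 lay below 0, against 51.1% of the 11774 genes measured in this comparison, whose median was −0.01. None of the 40 was past 2-fold in either direction, where 0.34% of genes were at least 2-fold lower and 5.1% at least 2-fold higher. The EGFP-only population was measured on both arrays, and its log2 values differed with an SD of 0.0880 over 15640 probes, called the technical SD here. Whether both arrays received the same RNA extract is not stated in the labels. Taking 2 of these SDs (0.176) as a limit, 23 of the 40 were lower and 0 higher, against 25.3% and 29.2% of all genes. This limit covers the spread of one channel only, not that between animals or dyes. In the authors' deposited log2 ratios the median of the 40 was −0.565, with 39 below 0 against 51.6% of all genes. With median centring all 40 were below 0, where 71.3% of all genes were.

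In the tdTomato-only cells the shift was smaller after loess normalization. The median log2 ratio to the EGFP-only cells was −0.16 over 39 genes (1.12-fold lower), and 30 of the 39 lay below 0, against 51.8% of 11381 genes. Psmc3ip, at −1.01, was the only one at least 2-fold lower (1.19% of all genes) and none was 2-fold higher (6.15%). Past 2 technical SDs were 17 below and 2 above, Psmb6 and Psme4, against 28.9% and 30.1% of all genes. The deposited ratios gave a median of −0.54 with 38 of 39 below 0, against 53.9% of all genes. With median centring all 39 were below 0, where 70.0% of all genes were. Both arrays share the EGFP-only population, so their ratios are not independent of each other.

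**Figure D1:**
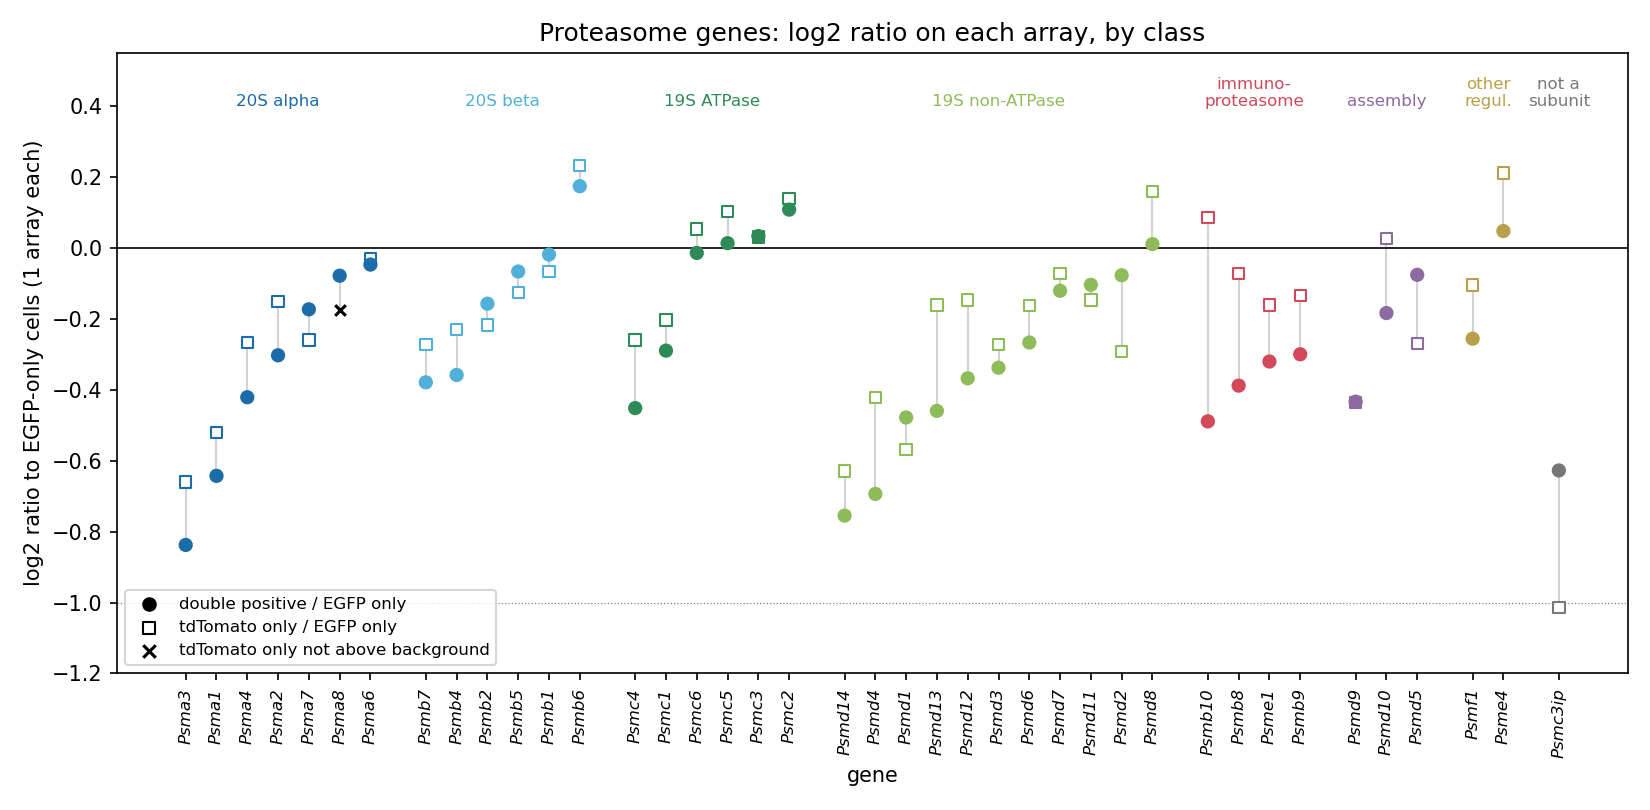
Log2 ratio of each of the 40 genes to the EGFP-only cells (vertical axis) in double-positive (filled circles) and tdTomato-only cells (open squares), by class and in order of the double-positive ratio, 1 array for each; a cross marks a value not above background. Most genes lie between −0.5 and 0 on both arrays, Psma3 is the lowest subunit at −0.84 and −0.66, and only Psmc3ip reaches the dotted line of a 2-fold lower level.

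How far below 0 the genes lay depended on how the brightness of a spot was handled. Over all 1470 genes as bright as most proteasome genes (an EGFP-only intensity above 1000 on both arrays), the median log2 ratio of double-positive to EGFP-only cells was −0.08 after loess, −0.36 in the authors' deposited ratios and −0.75 when arrays were centred on their median alone. The 33 proteasome genes of that brightness had medians of −0.30, −0.58 and −0.98 in the same order, and 28, 33 and 33 of them lay below 0, where 56.3%, 75.6% and 89.8% of the bright genes did. For the tdTomato-only cells the bright genes had medians of −0.10, −0.45 and −0.71 and the 33 proteasome genes −0.16, −0.54 and −0.81. Genes at least 2-fold lower than in EGFP-only cells numbered 2 of 40 (Psma3 and Psmd14) and 1 of 39 in the deposited ratios, against 3.57% and 7.28% of all genes, and 16 and 7 with median centring, against 6.29% and 7.47%. In these 3 settings the median of the proteasome genes minus that of the bright genes was thus −0.23 to −0.22 in the double-positive comparison and −0.10 to −0.06 in the tdTomato-only comparison. Across these settings, blank subtraction and quantile normalization, 30 of 40 proteasome genes stayed below 0 and 0 above it in the double-positive comparison, where 45.5% and 25.0% of all genes did. In the tdTomato-only comparison 27 of 39 stayed below and 0 above, against 45.5% and 27.9% of all genes.

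**Figure D2:**
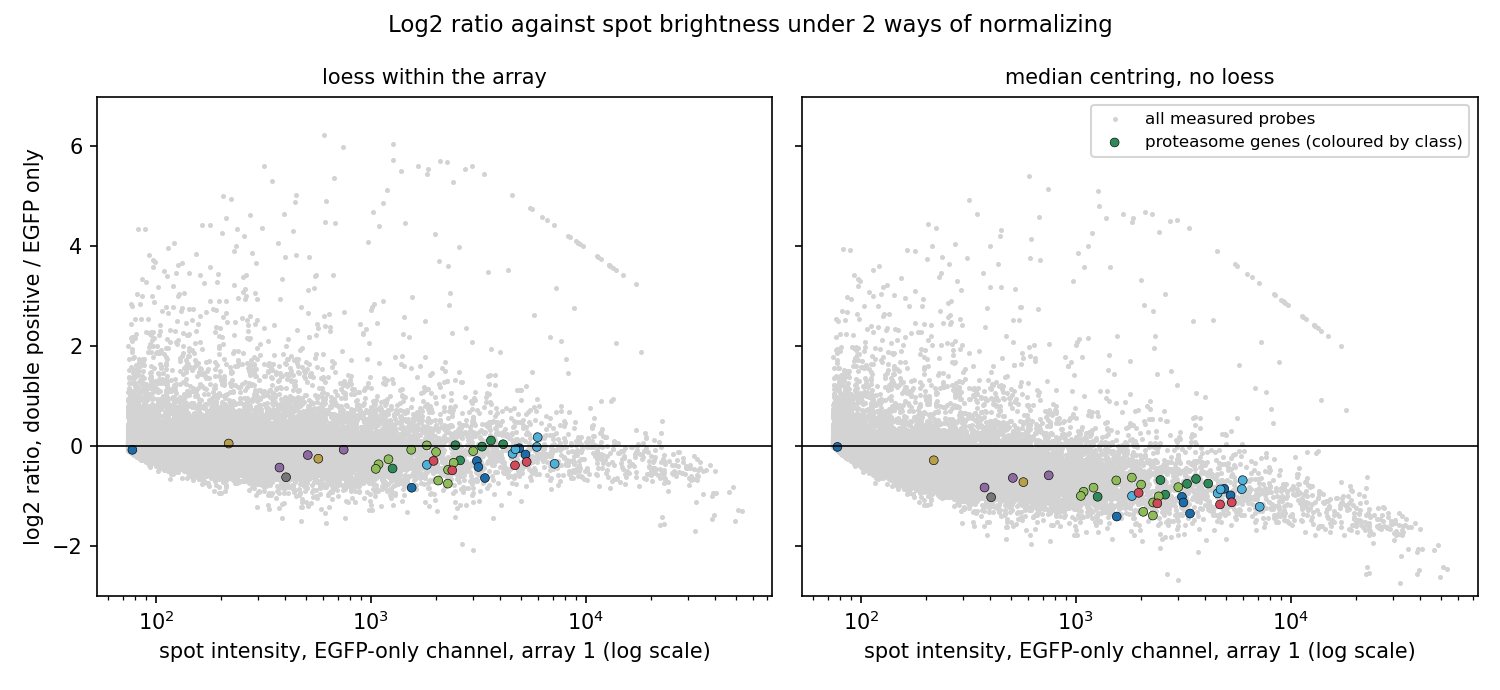
Log2 ratio of double-positive to EGFP-only cells (vertical axis) against the spot intensity in the EGFP-only channel of the first array (log axis), for all measured probes in grey and the 40 proteasome genes coloured by class, after loess (left) and with median centring alone (right). Without loess the whole cloud of bright probes slopes below 0, and the proteasome genes go with it.

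Among the alpha subunits of the 20S core, all 7 lay below 0 in the double-positive cells and all 6 measured ones in the tdTomato-only cells, with medians of −0.30 and −0.26. Of all genes, 51.1% and 51.8% lay below 0. Psma8, the alpha gene at the background limit, stood at 0.01 for the double-positive cells in the deposited ratios. Psma3 had spot intensities of 1549 and 1574 in EGFP-only cells (first and second array), 576 in double-positive and 697 in tdTomato-only cells. On both arrays its Cy3 spot was far dimmer than its Cy5 spot, and the normalized log2 ratios were −0.84 and −0.66, the lowest of any proteasome subunit. Psma1 read 3395 and 3314 in EGFP-only, 1291 in double-positive and 1476 in tdTomato-only cells, with ratios of −0.64 and −0.52. Psma4 was next at −0.42 and −0.27, and Psma2 had −0.30 and −0.15. Psma7 stood at −0.17 and −0.26 and was the only one of the 6 measured in all channels that was lower in the tdTomato-only than in the double-positive cells. Psma6 lay nearest to 0, with intensities of 4901 and 4980.1 in EGFP-only, 2605 in double-positive and 2915 in tdTomato-only cells and ratios of −0.05 and −0.03, and subtracting the blank mean in place of normexp put both at or just above 0. The log2 ratios of the alpha genes, Psma8 included, had an SD of 0.30 in the double-positive comparison.

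The constitutive beta subunits were closer to the EGFP-only level, with medians of −0.11 and −0.17 over 6 genes. Psmb6, which carries the caspase-like site, had 5973 and 5493 in EGFP-only, 3572 in double-positive and 3778 in tdTomato-only cells. Its ratios of 0.17 and 0.23 were the highest of the 20S genes, although quantile normalization, median centring and the deposited ratios (−0.27 and −0.25) put it below 0. Psmb5, with the chymotrypsin-like site, read 4708 and 4407 in EGFP-only, 2484 in double-positive and 2457 in tdTomato-only cells, and its ratios were −0.07 and −0.13. Psmb7, with the trypsin-like site, read 1823 and 1778 in EGFP-only, 889 in double-positive and 997 in tdTomato-only cells, and its ratios were −0.38 and −0.27. The genes of the catalytic sites thus lay on both sides of 0 after loess, and all below it in the deposited ratios. These ran from −0.27 to −0.63 in the double-positive and from −0.25 to −0.59 in the tdTomato-only cells. Of the beta subunits without a catalytic site, Psmb4 had −0.36 and −0.23, Psmb2 −0.16 and −0.22, and Psmb1 −0.02 and −0.07, the last with no stable sign across settings.

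In the 19S cap, the ATPases lay near 0 and the other subunits below it. The 6 ATPase genes had a median of −0.00 in the double-positive and 0.04 in the tdTomato-only cells. Of them 3 and 4 were above 0, where 51.1% and 51.8% of all genes lay below 0. All 6 were below 0 in the deposited ratios (medians of −0.345 and −0.375), with median centring and after quantile normalization. So were most genes with an EGFP-only intensity above 1000, in the same order 75.6%, 89.8% and 70.6% in the double-positive comparison. In the tdTomato-only comparison 76.7%, 86.9% and 68.6% of such genes were. In these settings too the ATPases had the class median nearest to 0 among the 20S, 19S and immunoproteasome classes. Psmc2 was the highest, with 3622 and 3793 in EGFP-only, 2211 in double-positive and 2555 in tdTomato-only cells and ratios of 0.11 and 0.14 (−0.25 and −0.29 in the deposited ratios). Psmc4 was the lowest, with 1262 and 1252 in EGFP-only, 615 in double-positive and 734 in tdTomato-only cells and ratios of −0.45 and −0.26. Psmc1 (−0.29 and −0.20) lay below 0 as well, whereas Psmc3, Psmc5 and Psmc6 were within 0.11 of it on both arrays.

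Of the 11 other cap subunits 10 lay below 0 on each array, against 51.1% and 51.8% of all genes, with medians of −0.34 and −0.16. Psmd14, the deubiquitinase that cuts the ubiquitin chain from the substrate, had 2282 and 2241 in EGFP-only, 851 in double-positive and 974 in tdTomato-only cells. Its ratios of −0.75 and −0.63 were the lowest of the cap and below 0 in every setting. Psmd4, a ubiquitin receptor, read 2058 and 2064 in EGFP-only, 809 in double-positive and 1035 in tdTomato-only cells, with ratios of −0.69 and −0.42. Psmd1, a scaffold of the cap's base, had −0.48 and −0.57, and Psmd13 and Psmd12, parts of its lid, had −0.46 and −0.37 in double-positive but −0.16 and −0.15 in tdTomato-only cells. Psmd3 stood at −0.34 and −0.27, and Psmd6 at −0.27 and −0.16. Psmd2, the other scaffold of the base, went from −0.08 in the double-positive to −0.29 in the tdTomato-only cells. Psmd8 was highest, with 1821 and 1689.8 in EGFP-only, 1139.7 in double-positive and 1260.0 in tdTomato-only cells and ratios of 0.01 and 0.16, which the deposited ratios put at −0.24 and −0.15. Psmd7 and Psmd11 lay between −0.15 and −0.07 on both arrays.

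Upstream sequence is shown for the core and cap subunits with the lowest ratios (Psma3 and Psmd14), for the core subunit with the highest (Psmb6) and for the immunosubunit gene that shares its promoter with Tap1 (Psmb9). The 250 bases before each RefSeq start, on the gene's own strand in GRCm38.p6, are chr12:70974373-70974622 (plus strand), chr2:61711444-61711693 (plus strand), chr11:70525107-70525356 (plus strand) and chr17:34187331-34187580 (minus strand). Capitals mark matches, on either strand, to CCAAT (the box bound by NF-Y) or to TGACNNNGC (the core of the antioxidant response element, which Nfe2l1 and Nfe2l2 bind).
Psma3: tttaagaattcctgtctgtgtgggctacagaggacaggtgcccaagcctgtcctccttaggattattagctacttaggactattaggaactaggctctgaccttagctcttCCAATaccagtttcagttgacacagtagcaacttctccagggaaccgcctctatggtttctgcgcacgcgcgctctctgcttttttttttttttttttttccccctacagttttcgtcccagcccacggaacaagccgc
Psmd14: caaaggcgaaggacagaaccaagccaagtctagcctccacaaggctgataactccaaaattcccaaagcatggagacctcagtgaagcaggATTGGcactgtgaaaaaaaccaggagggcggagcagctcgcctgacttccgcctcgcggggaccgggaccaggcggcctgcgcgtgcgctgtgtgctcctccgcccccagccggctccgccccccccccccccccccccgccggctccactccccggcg
Psmb6: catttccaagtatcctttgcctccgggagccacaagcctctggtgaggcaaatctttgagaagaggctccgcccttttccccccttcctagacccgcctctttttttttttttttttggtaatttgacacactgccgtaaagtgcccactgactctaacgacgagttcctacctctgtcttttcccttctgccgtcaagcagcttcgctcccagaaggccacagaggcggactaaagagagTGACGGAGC
Psmb9: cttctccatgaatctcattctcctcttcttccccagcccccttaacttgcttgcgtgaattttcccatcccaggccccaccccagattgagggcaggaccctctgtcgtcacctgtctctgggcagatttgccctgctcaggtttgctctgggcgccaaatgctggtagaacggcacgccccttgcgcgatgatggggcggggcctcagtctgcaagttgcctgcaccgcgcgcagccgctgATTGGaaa
Psma3, Psmd14 and Psmb9 each hold 1 CCAAT match and Psmb6 holds 1 match to TGACNNNGC, with no overlap between matches. RefSeq windows were at hand for 33 of the 40 genes, 35 windows in all. CCAAT was in 12 of the 35 (34.3%) and in 33.8% of all 32851 windows, and TGACNNNGC in 5 of 35 (14.3%) and in 10.2% of all. By class, 5 of the 7 windows of alpha genes held CCAAT and none of the 3 of beta genes did, while TGACNNNGC was in 2 of the 3 beta windows (Psmb5 and Psmb6) and in none of the 7 alpha windows. These matches describe the letters in the windows only.

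Immunoproteasome genes were lower in the double-positive cells and, after loess, near the EGFP-only level in the tdTomato-only cells, where the deposited ratios put all 4 below 0 with a median of −0.49. Psmb8 had 4682 and 4523 in EGFP-only, 2009 in double-positive and 2602 in tdTomato-only cells, with log2 ratios of −0.39 and −0.07. Psmb9 read 1959 and 1951 in EGFP-only, 996 in double-positive and 1185 in tdTomato-only cells, with −0.30 and −0.13. Psme1, which encodes the alpha subunit of PA28, had 5309 and 4913 in EGFP-only, 2342 in double-positive and 2646 in tdTomato-only cells, with −0.32 and −0.16. For each of these genes the double-positive spot on the first array, before normalization, was dimmer than the tdTomato-only spot on the second. The median over the 40 proteasome genes went the same way, at 1141 against 1252. So did the median over all probes, at 104 against 108. All 4 genes were below 0 and past 2 technical SDs in the double-positive comparison (median −0.35), as 25.3% of all genes were, and 3 of 4 were below 0 and none past that limit in the tdTomato-only comparison (median −0.10).

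Psmb10 needs care, because its EGFP-only spots did not repeat. It had 2392 in EGFP-only and 1050.5 in double-positive cells on the first array, but 3992 in EGFP-only and 2583 in tdTomato-only cells on the second. Both channels were brighter on the second array, and the EGFP-only values, from 1 sorted population, lay 0.76 apart on the log2 scale after the arrays were set to a common median. Psmd10 also differed, with EGFP-only intensities of 509 and 370 and a log2 difference of −0.46. The other 38 genes repeated within −0.13 and 0.09, with an SD of 0.0552, and over all probes 1.83% differed by more than 0.25. The ratios of Psmb10, −0.49 and 0.09, and those of Psmd10, −0.18 and 0.03, rest on these spots.

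**Figure D3:**
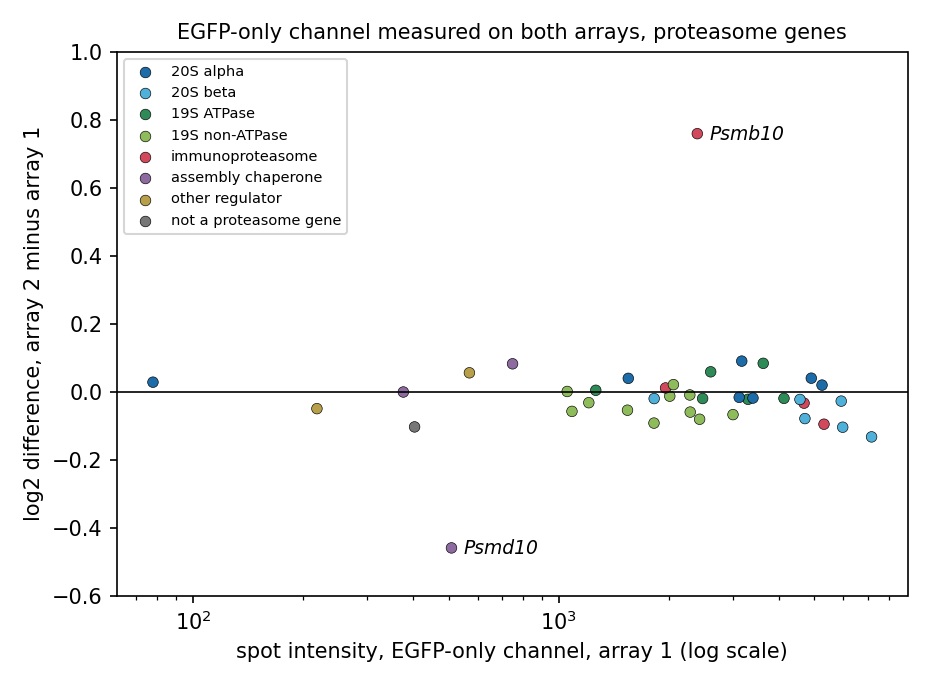
Difference between the 2 arrays in the log2 intensity of the EGFP-only channel (vertical axis, second minus first, centred on the median of all probes) against the intensity on the first array (log axis) for the 40 genes, coloured by class. Psmb10 at 0.76 and Psmd10 at −0.46 stand apart from the other 38 genes, which lie between −0.13 and 0.09.

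Set against the constitutive subunit that each replaces, the immunosubunits did not share 1 pattern. The log2 ratio of Psmb8 was 0.32 below that of Psmb5 in the double-positive cells but 0.05 above it in the tdTomato-only cells. Psmb9 lay below Psmb6 on both arrays, with differences of −0.47 and −0.37. Psmb10 differed from Psmb7 by −0.11 and 0.36, with the reservation on its spots. Across loess, blank subtraction, median centring, quantile normalization and the deposited ratios, the Psmb8 difference ranged from −0.34 to −0.30 in the double-positive and from 0.04 to 0.06 in the tdTomato-only cells, the Psmb9 difference from −0.57 to −0.25 and from −0.49 to −0.19, and the Psmb10 difference from −0.15 to −0.11 and from 0.21 to 0.45. The sign of all 6 differences was kept, and the Psmb9 and Psmb10 differences moved by more than 1.5 times in the tdTomato-only cells. The median of the 4 immunoproteasome genes was 0.13 below that of the 30 constitutive 20S and 19S genes in the double-positive cells and 0.06 above that of 29 in the tdTomato-only cells. With the mean of the blanks subtracted the first of these distances was −0.05 and the second 0.12, and without Psma8, which the stricter filter also removes, the first was −0.09.

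Lymphocyte markers were higher in the double-positive population, where the immunoproteasome genes were lower. Before normalization, the summed intensity over blanks of the 19 lymphocyte markers with a probe was 1748 and 1681 in EGFP-only, 13608 in double-positive and 5927 in tdTomato-only cells. Cd3e was not above background in any channel, while Cd3g, Cd3d, Cd8a, Ptprc and Gzmb were, for example Cd8a with log2 ratios of 2.75 and 1.61. Myeloid markers were mixed, with 5 of 9 below 0 in the double-positive and 4 of 7 in the tdTomato-only cells (medians of −0.11 and −0.06), from C1qb at 3.62 and 3.30 to Cd14 at −0.60 and −0.88. Their summed intensity over blanks, before normalization, was 1286 and 1234 in EGFP-only, 1703 in double-positive and 1468 in tdTomato-only cells. The part of lymphocyte and myeloid RNA in the immunoproteasome values was not tested.

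The tdTomato-only and double-positive cells shared no array. Their comparison is the difference between the arrays, in which the EGFP-only reference cancels as far as it was alike on both. Its median was 0.10 over 39 proteasome genes (1.07-fold higher in the tdTomato-only cells), against −0.02 over 11311 genes. Of the 39, 28 lay above 0 and 11 below, where 54.3% of all genes lay below 0, and 23 stayed above and 5 below in all 5 normalizations, as 37.1% and 47.3% of all genes did. Past 2 technical SDs were 8 above and 3 below, against 15.8% and 20.4% of all genes, and none was 2-fold apart in either direction (0.813% of genes higher and 0.274% lower). The deposited ratios gave a median of 0.03 with 23 genes above and 14 below 0, where 59.1% of all genes lay below 0, and median centring gave 34 above and 5 below, where 49.3% of all genes lay below 0. The 4 immunoproteasome genes were all above 0, with Psmb8 at 0.32 (1.24-fold higher in the tdTomato-only cells), Psmb9 at 0.17, Psme1 at 0.16 and Psmb10 at 0.58, and their median of 0.24 was 0.15 above that of the constitutive subunits. Without Psmb10 and Psmd10 that distance was 0.08. Of the cap, Psmd13 (0.30), Psmd4 (0.27), Psmd12 (0.22) and Psmc4 (0.19) were higher in the tdTomato-only cells and Psmd2 (−0.22) was lower. The alpha subunits had a median of 0.14 and the beta subunits one of 0.01, which the deposited ratios put at −0.035.

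**Figure D4:**
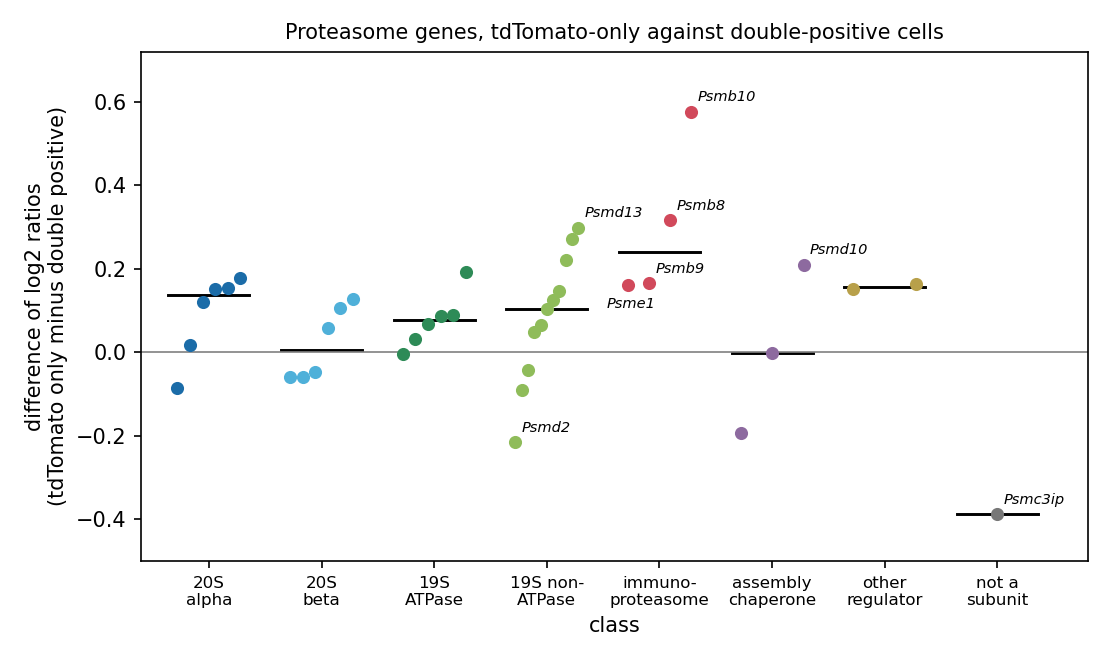
Difference of the log2 ratios, tdTomato-only minus double-positive (vertical axis), for the 39 genes above background in all channels, by class; each point is 1 gene and each bar the class median. The 4 immunoproteasome genes lie between 0.16 and 0.58, and the bars of the 20S and 19S classes between 0.01 and 0.14.

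Assembly chaperones and regulators gave mixed values. Psmd9, a chaperone of the ATPase ring, had 376 and 372 in EGFP-only, 219 in double-positive and 225 in tdTomato-only cells, with ratios of −0.43 and −0.44. Psmd5, another such chaperone, read 748 and 782 in EGFP-only, 492 in double-positive and 478 in tdTomato-only cells, with −0.08 and −0.27. Psme4, which encodes the activator PA200, had 218 and 209 in EGFP-only, 185 in double-positive and 204 in tdTomato-only cells. Its ratios were 0.05 and 0.21, the second of them the highest after Psmb6 in that comparison, but neither was above 0 in every setting. Psmf1, the proteasome inhibitor PI31, stood at −0.26 and −0.10. Psmc3ip read 404 and 373 in EGFP-only, 207 in double-positive and 162 in tdTomato-only cells, with ratios of −0.63 and −1.01, and this recombination factor was thus the lowest of the 40 in the tdTomato-only cells. Leaving it out together with Psma8 changed the medians of the remaining 38 genes little, to −0.28 and −0.16.

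Of 15 measured genes for proteins that work with the proteasome, 8 lay below 0 in the double-positive and 10 in the tdTomato-only cells, against 51.1% and 51.8% of all genes, with medians of −0.01 and −0.07. The deposited ratios put these medians at −0.10 and −0.37, and with median centring, at −0.47 and −0.62, 12 and 13 lay below 0, against 71.3% and 70.0% of all genes. Pomp, the chaperone that matures the 20S core, had 3465 and 3492 in EGFP-only, 1602 in double-positive and 2020.0 in tdTomato-only cells and ratios of −0.33 and −0.11. Adrm1, a ubiquitin receptor of the cap, had −0.42 and −0.13, and the adaptor gene Rad23b −0.52 and −0.41. Sem1, a small lid subunit that the symbol rule does not take in, went above 0 with 0.34 and 0.29, though the deposited ratios put it at −0.06 and −0.16. Ecpas, which tethers the core to the cap, had 0.72 and 0.84 and Ubqln4, a shuttle for ubiquitinated proteins, 0.64 and 0.11 (−0.10 in the deposited ratios for the second). The only partner past 2-fold was Zfand2a, a stress-induced proteasome-binding protein gene, with 344 and 351 in EGFP-only, 695 in double-positive and 940 in tdTomato-only cells and ratios of 1.57 and 1.92.

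The ubiquitin system itself stayed near the array's centre after loess. Its 15 measured genes had loess medians of 0.05 on both arrays, with 8 above 0 on each, where 51.1% and 51.8% of all genes lay below 0. None was past 2-fold after loess. With median centring all 15 were below 0 (medians of −0.31 and −0.33), as 71.3% and 70.0% of all genes were. Ube4a, Nploc4 and Uchl3 were dim, with intensities from 80.7 to 97.0. The lowest of the 15 was the ubiquitin-conjugating enzyme gene Ube2n (−0.62 and −0.38), which the deposited ratios put past 2-fold in the double-positive cells (−1.06 and −0.73). The unfoldase gene Vcp (0.31 on both arrays) and the ubiquitin-activating enzyme gene Uba1 (0.34 and 0.05) were above 0 after loess and below it with median centring. In the list of transcriptional regulators of proteasome genes, 5 of 11 measured genes were above 0 in the double-positive and 6 in the tdTomato-only cells, where 51.1% and 51.8% of all genes lay below 0. Nfe2l1, which induces proteasome genes when the proteasome is impaired, was dim, with 228 and 233 in EGFP-only, 218 in double-positive and 223 in tdTomato-only cells, and had ratios of 0.27 and 0.21 (−0.08 and −0.13 with median centring). Nfe2l2, the oxidative stress regulator, had 1149.7 and 1057 in EGFP-only, 464 in double-positive and 689 in tdTomato-only cells, with −0.77 and −0.12. Of its small Maf partner genes, Mafk (0.83 and 1.14) and Maff (0.79 and 0.85) were higher, whereas Mafg was near 0 (−0.04 and 0.04). The Nfe2l1-processing enzyme gene Ngly1 (0.85 on both arrays) was higher too. Of the CCAAT-binding subunit genes, Nfya (−0.35 and −0.82) was the lowest, with Nfyb at −0.03 and −0.09 and Nfyc at −0.23 and −0.17.

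Genes of MHC class I antigen processing, which loads the proteasome's peptides, had mixed values. Of the 11 measured, general chaperones of the endoplasmic reticulum such as Hspa5 included, 8 lay above 0 in the double-positive cells and 7 in the tdTomato-only cells, where 51.1% and 51.8% of all genes lay below 0. Their medians were 0.34 and 0.20, but median centring put both medians below 0, and the deposited ratios put the second at −0.24. Tap1, the peptide transporter gene that starts 226 bases from Psmb9 on the opposite strand, had 288 and 293 in EGFP-only, 156 in double-positive and 187 in tdTomato-only cells. Its ratios of −0.65 and −0.42 lay on the same side of 0 as those of Psmb9 (−0.30 and −0.13). Most proteasome genes lay on that side too, 34 of 40 and 30 of 39, and a link through the shared promoter was not tested. Tap2, the gene of the transporter's other subunit, had 0.43 and 0.67, and Tapbp, the tapasin gene, 0.62 and 0.59. Hspa5 was past 2-fold at 1.46 and 1.31, and in the deposited ratios it stood at 0.88 and 0.71.

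Interferon response genes had medians of 0.10 over 20 genes and 0.26 over 21, and those past 2-fold numbered 0 in the double-positive and 5 in the tdTomato-only cells, all 5 higher, where 5.1% and 6.15% of all genes were 2-fold higher. The deposited ratios gave 2 and 10, against 10.6% of all genes on each array. Median centring put these medians at −0.01 and 0.04. Between these populations, 17 of 20 were higher in the tdTomato-only cells, with a median of 0.22, where 54.3% of all genes lay below 0. Irf7 was apart by 0.99, the guanylate-binding protein gene Gbp2 by 0.94 and the antiviral enzyme gene Oas1a by 0.92. The interferon-gamma receptor genes Ifngr1 (0.40) and Ifngr2 (0.25) had the same sign. Ido1, which interferon induces, read 88.2 in EGFP-only and 1775 in tdTomato-only cells on the second array, a log2 ratio of 4.99, against 72.9 and 116 on the first, where its EGFP-only spot was not above background. The 4 immunoproteasome genes, at 0.16 to 0.58 in the same comparison, lay on the same side of 0 as most of this list. Of all 39 proteasome genes, however, only 11 lay below 0 there. The cap genes Psmd13 (0.30) and Psmd4 (0.27) were above Psmb9 and Psme1. The value of 0.58 is that of Psmb10, whose EGFP-only spots did not repeat, and a link with interferon was not tested.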

How the data were processed

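The deposited scanner files, 1 for each array, hold spot median intensities in red (Cy5, EGFP-only) and green (Cy3), which the authors did not normalize, per the file headers. The authors also deposited normalized log2 ratios of the Cy3 over the Cy5 population, per the labels; the sources used here do not say how these were made, nor give the array design's genome build. RNA was amplified with amino allyl coupling and labelled as the maker of the array, Toray, prescribes, per the labels' protocols.

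Of the 27456 spots on an array, 3982 were controls (2736 blank). Intensities were corrected with normexp (offset 50, no local background) and normalized by loess within each array, giving weight 0 to controls and to spots with a quality mark (limma 3.58.1 in R 4.3.3). A probe was measured where every channel used exceeded the blank mean plus 2 SD, which 67.0% to 77.1% of 23474 probes did per channel. Median probe intensities were 98.2 to 108. Probes of a gene were averaged. The offset shrinks folds of dim genes, and the number of arrays limits the precision. No test was made. Genes were named from the platform's annotation (16632 probes with 1 gene, 6842 unnamed here), updated through RefSeq GRCm38.p6, which also gave the promoter windows; the members keep the annotation's symbols.

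The alternatives were blank-mean subtraction, median centring, quantile normalization, the deposited ratios, no filter or one of 5 SD, and the brightest probe of a gene. Members, gene lists and the rule for named genes were chosen with earlier results of these data known; the rule took the immunoproteasome genes, the extremes of each class, genes past 2-fold, and up to 3 genes of each other list with the largest ratios, and some further genes were named after their values were seen. The steps were tested on simulated arrays.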

Additional observations from a re-analysis of the deposited data

How the results depend on the processing

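The median of the proteasome genes lay below 0 in both comparisons with the EGFP-only cells and above 0 between the tdTomato-only and double-positive cells under all 7 alternatives, and the distance of the immunoproteasome from the constitutive median kept its sign in all 7. The size of the proteasome median moved by more than 1 technical SD with the normalization alone. In the double-positive comparison it was −0.93 with median centring, −0.47 after quantile normalization and −0.565 in the deposited ratios, against −0.28, and in the tdTomato-only comparison −0.80, −0.40 and −0.54, against −0.16. Median centring also moved the median of all genes to −0.21 in both. With blank subtraction 31 of 40 and 27 of 39 genes lay below 0. The immunoproteasome distance in the double-positive comparison ranged from −0.21 with median centring to −0.05 with blank subtraction, against −0.13. Leaving out Psmb10 and Psmd10, or Psmc3ip and Psma8, was added after seeing the data and moved no median by 1 technical SD, though without Psmb10 and Psmd10 the immunoproteasome distance in the tdTomato-only comparison was 0.03, against 0.06. No paired analysis was possible because each population is 1 sample, and no replicate could be left out. Only Psma8 was not above background in every channel. Among the dimmer genes, blank subtraction moved Psmc3ip from −1.01 to −1.39 in the tdTomato-only comparison.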

Other observations

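Genes of 3 further proteasome assembly chaperones are on the array under older symbols, outside the symbol rule. Psmg1 (as Dscr2), whose product pairs with that of Psmg2 to build the alpha ring, had 1425 and 1439.7 in EGFP-only, 679 in double-positive and 663 in tdTomato-only cells, with log2 ratios of −0.46 and −0.61. Psmg2 (as Tnfsf5ip1) read 1119 and 1029.6 in EGFP-only, 552 in double-positive and 449 in tdTomato-only cells, with −0.45 and −0.76. Both lay below 0 on each array, and lower in the tdTomato-only than in the double-positive cells. Psmg3 (as 1810042K04Rik), which helps the same step, had −0.08 and −0.17. The direction between the populations, −0.15 for Psmg1, −0.30 for Psmg2 and −0.09 for Psmg3, was opposite to that of the alpha subunits, whose median was 0.14, and that difference was not tested.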
